A study of Homo sapiens with 4 samples.

Results

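The genes described here encode proteins of 2 kinds of epithelial cell contact, the tight junction and the desmosome. They are the claudin genes CLDN1, CLDN3, CLDN4 and CLDN7, the occludin gene OCLN, the scaffold gene TJP1, the desmosomal cadherin genes DSC2 and DSG2, and the plaque genes DSP and JUP. Their rows were taken by gene name, but the set was chosen with earlier results of these data known. All 10 had 1 row each among the 53777 rows with an Ensembl gene identifier, and all 10 were among the 12834 genes tested. The cells were NUGC3, a human gastric cancer line, and RNA was sequenced from 4 libraries. A pair of scramble libraries came from cells given a control hairpin. The knockdown libraries came from cells given 1 of 2 short hairpins against NIPBL, numbered 1 and 7 in the labels, with 1 library each. NIPBL loads cohesin, the ring that holds and loops chromosomes. All 4 labels carry the letters DOX, which they do not explain, and the label of the second scramble library is that of the first with a suffix that may mark a repeat.

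Tight junctions seal the space between neighbouring epithelial cells. Claudins form their strands and set which ions pass, occludin lies in the same strands, and TJP1 (also called ZO-1) ties them to actin. Desmosomes rivet the cells together: desmocollins and desmogleins meet between the cells, plakoglobin (JUP) and plakophilins bind their tails, and desmoplakin (DSP) anchors them to keratin filaments.

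Values are the authors' FPKM, which scales reads to transcript length and library size, so that levels of different genes can be set side by side. Summed FPKM was between 682076 and 749446 per library, and read depth is unknown. NIPBL, the targeted gene, was at 23.92 and 23.11 FPKM with scramble, 7.27 FPKM with hairpin 1 and 9.17 FPKM with hairpin 7. All 9 epithelial markers checked, EPCAM and KRT8 among them, had a mean of at least 1 FPKM, and their summed level was between 5242 and 6204 FPKM per library. Of 11 gastric or intestinal lineage markers 2 reached that mean (CDX2 and AGR2), and the gastric claudin gene CLDN18 was at most 0.05 FPKM in any library. The summed level of these 11 was 5.34 and 5.32 FPKM with scramble and 15.7 and 13.4 FPKM with the hairpins. That difference was mostly AGR2, at 2.31 and 1.47 FPKM with scramble and 10.14 and 10.69 FPKM with the hairpins, while CDX2 was at 2.80 and 2.99 FPKM with scramble and 2.71 and 1.46 FPKM with the hairpins. Its part in the members' values was not tested. Fibroblast, immune and endothelial markers with a row had means under 1 FPKM apart from COL1A1, VIM, ACTA2 and CD68. No row was found for PECAM1, 1 of 5 endothelial markers. The summed immune list was 13.3 and 17.9 FPKM with scramble and 32.5 and 38.0 FPKM with the hairpins, nearly all of it CD68, with the defining marker PTPRC at 0. Its part in the members' values was not tested.

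CLDN1 and CLDN4 moved apart in both knockdown libraries, DSC2 was higher in both, and the other members differed less or in opposite directions between the hairpins. None of the 10 members passed the test over all genes (limma, adjusted p under 0.05), where 2.56% of all genes tested passed. At an unadjusted p under 0.05 limma gave 3 members higher (CLDN4, DSC2 and JUP) and 1 lower (CLDN1), against 13.6% and 12.8% of all genes tested. Of the 10 members 4 had both hairpin values above both scramble values and 3 had both below, against 29.5% and 30.8% of all genes tested. These shares are close to those of all genes. By a count with no test, 1 member (DSC2) lay at least 1.5-fold above both scramble libraries with both hairpins and 1 (CLDN1) at least 1.5-fold below, against 3.3% and 2.28% of all genes tested on the log2(FPKM + 1) scale. The median log2 change was 0.03 over the 10 members and -0.01 over all genes tested. With hairpin 1 alone the members' median was -0.11 and with hairpin 7 alone it was 0.11, so its sign depends on the hairpin. Over the 6 tight junction members it was -0.23, or -0.15 with hairpin 1 and -0.08 with hairpin 7. Over the 4 desmosome members it was 0.18, or 0.12 with hairpin 1 and 0.24 with hairpin 7. No label says that the libraries came from separate cultures, so p-values here reflect the spread between libraries alone, and that spread may be technical.

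**Figure D1:**
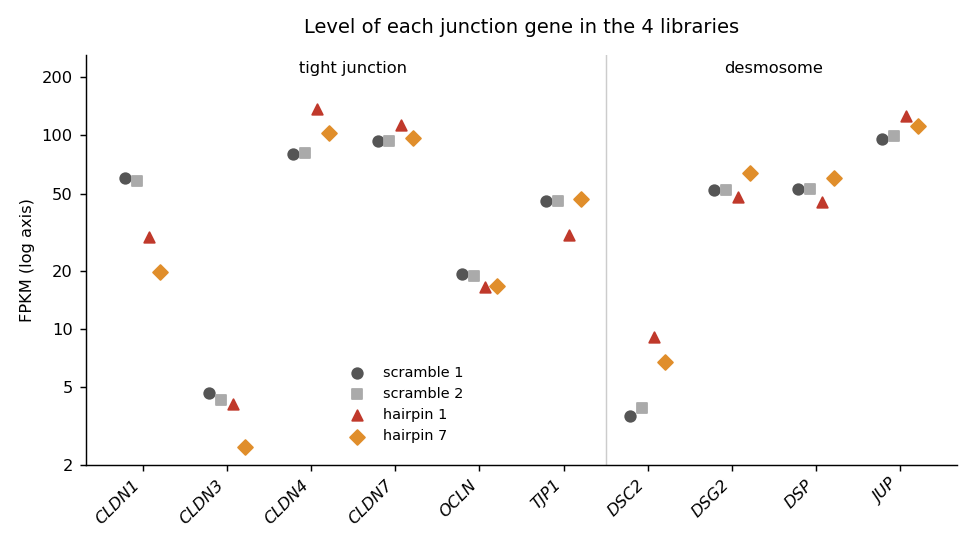
FPKM of each member (vertical log axis) in the 4 libraries, 1 point per library, with tight junction genes on the left and desmosome genes on the right. The scramble points lie almost on each other, CLDN1 is at 59.91 and 57.99 FPKM with scramble and 29.75 and 19.76 FPKM with the hairpins, and DSC2 is the gene with the highest fold over scramble.

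In the scramble libraries JUP was the most abundant member, at 95.80 and 99.05 FPKM, which put it above 92.5% of the genes tested. Below it came CLDN7 (93.42 and 93.89 FPKM), CLDN4 (80.03 and 80.54 FPKM), CLDN1 (59.91 and 57.99 FPKM), DSP (52.52 and 52.85 FPKM), DSG2 (52.01 and 52.48 FPKM) and TJP1 (45.61 and 45.94 FPKM). OCLN followed at 19.23 and 18.86 FPKM, and CLDN3 (4.67 and 4.30 FPKM) and DSC2 (3.56 and 3.92 FPKM) were lowest. The order was the same in both scramble libraries, although DSP and DSG2 lay within 1 FPKM of each other. With both hairpins CLDN1 went from the fourth place to rank 7, while CLDN3 and DSC2 exchanged the last places. CLDN4 was at rank 1 with hairpin 1 and at rank 2 with hairpin 7.

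Promoter sequences are shown for the 3 members with a log2 change of at least 0.5 in size, and for CLDN3, which neighbours CLDN4 and did not move with it. They run 5′ to 3′ on the gene's strand, from 250 bases before to 50 bases after a start in RefSeq (GRCh38.p14), and for DSC2 the most upstream of 2 listed starts was taken. Capitals mark 2 motifs on either strand: the E-box CAGGTG, bound by SNAI and ZEB repressors, and CACNCCC, a core bound by Krüppel-like factors. The windows are chr3:190322397-190322696 (minus strand) for CLDN1, chr7:73830746-73831045 (plus strand) for CLDN4, chr7:73770221-73770520 (minus strand) for CLDN3 and chr18:31102372-31102671 (minus strand) for DSC2.
CLDN1: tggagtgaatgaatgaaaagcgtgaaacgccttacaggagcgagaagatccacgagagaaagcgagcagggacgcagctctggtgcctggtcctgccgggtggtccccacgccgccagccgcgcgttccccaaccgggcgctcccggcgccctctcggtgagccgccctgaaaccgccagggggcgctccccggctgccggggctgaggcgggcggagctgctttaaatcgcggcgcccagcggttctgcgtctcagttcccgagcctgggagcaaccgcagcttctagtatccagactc
CLDN4: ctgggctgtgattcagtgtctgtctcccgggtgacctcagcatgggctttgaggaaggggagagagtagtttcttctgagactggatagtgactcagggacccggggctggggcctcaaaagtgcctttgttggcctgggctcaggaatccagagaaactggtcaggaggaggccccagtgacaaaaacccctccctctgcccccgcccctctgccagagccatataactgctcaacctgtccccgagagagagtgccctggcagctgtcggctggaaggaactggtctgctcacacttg
CLDN3: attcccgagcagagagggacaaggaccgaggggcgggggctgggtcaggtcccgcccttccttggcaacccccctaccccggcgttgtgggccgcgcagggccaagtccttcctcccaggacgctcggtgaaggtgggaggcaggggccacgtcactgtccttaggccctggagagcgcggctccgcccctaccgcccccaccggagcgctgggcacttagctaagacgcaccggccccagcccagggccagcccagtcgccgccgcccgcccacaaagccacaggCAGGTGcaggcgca
DSC2: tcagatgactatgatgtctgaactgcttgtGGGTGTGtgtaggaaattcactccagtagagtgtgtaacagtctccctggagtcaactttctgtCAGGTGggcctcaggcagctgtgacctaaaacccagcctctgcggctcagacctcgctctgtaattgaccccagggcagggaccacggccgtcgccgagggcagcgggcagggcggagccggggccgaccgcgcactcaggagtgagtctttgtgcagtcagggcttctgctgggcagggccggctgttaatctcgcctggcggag

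CLDN1 and CLDN4 held neither motif in these windows, CLDN3 held 1 E-box after its start, and DSC2 held 1 of each upstream. Over all members 6 of 10 windows held the E-box (CLDN3, OCLN, TJP1, DSC2, DSG2 and DSP), against 20.6% of 35116 promoter windows of the same length. The Krüppel-like core was in 4 of 10 (CLDN7, OCLN, DSC2 and JUP), against 30.0% of all windows. AACNGGTT, a core bound by grainyhead-like factors, was in 0 of 10, against 1.73%. No matches of different motifs overlapped in the members. These are matches of letters, not binding sites.

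Among the claudins, CLDN1 was lower with NIPBL knockdown. CLDN1 encodes a strand-forming claudin of barrier epithelia (ENSG00000163347, chromosome 3, 190305701 to 190322475 on the minus strand in GENCODE 29). Its level was 59.0 ± 1.36 FPKM with scramble and 24.8 ± 7.06 FPKM with knockdown (SD, n = 2 each), with 50.5% of the scramble mean under hairpin 1 and 33.5% under hairpin 7. The groups did not overlap. The log2 change was -1.25 ± 0.20 (SE; 95% interval -1.77 to -0.72), at an adjusted p of 0.0544 (limma). That p lies next to the threshold: it was 0.0476 with genes of at least 5 FPKM only and 0.0428 with protein-coding genes only, and 0.453 with the scramble libraries averaged into 1 sample.

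CLDN4 went the other way. It encodes a claudin that can be bound by a Clostridium enterotoxin, as can CLDN3. With hairpin 1 its level was 137.33 FPKM, and with hairpin 7 it was 103.14 FPKM, or 171% and 128% of the scramble mean. Both values lay above both scramble values, by a margin that differed between the hairpins. The log2 change was 0.56 ± 0.16 (SE; 95% interval 0.16 to 0.97), at an adjusted p of 0.116 (limma), and it was 0.36 without hairpin 1. The ratio of CLDN4 to CLDN1 was 1.34 and 1.39 in the scramble libraries, 4.62 with hairpin 1 and 5.22 with hairpin 7. This ratio was chosen after the values were seen.

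CLDN3 was low throughout, at 4.10 FPKM with hairpin 1 and 2.45 FPKM with hairpin 7. Hairpin 1 gave a value just under the lower scramble value of 4.30 FPKM, so the lower mean came mostly from hairpin 7 (log2 change -0.39 ± 0.23, SE, limma, adjusted p = 0.337; -0.10 with hairpin 1 alone and -0.67 with hairpin 7 alone). CLDN7, a claudin that pairs with EPCAM in epithelial membranes, was at 113.36 FPKM with hairpin 1 and 96.25 FPKM with hairpin 7. This last value lay close to the scramble value of 93.89 FPKM, so that CLDN7 differed mainly with hairpin 1 (log2 change 0.16 ± 0.11, SE, limma, adjusted p = 0.428; 0.27 with hairpin 1 alone and 0.04 with hairpin 7 alone).

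The other members of the family put these levels in proportion. Of 23 claudin genes with a row, 7 had a mean of at least 1 FPKM, and the most abundant was CLDN6, a claudin of early embryonic epithelia that some tumours express. CLDN6 was at 147.02 and 149.24 FPKM with scramble and at 204.86 and 203.99 FPKM with the hairpins, a log2 change of 0.46 ± 0.09 (SE) at an adjusted p of 0.0689 (limma). CLDN12 had a log2 change of 0.06, which was 0.01 without hairpin 7 and 0.11 without hairpin 1. That of CLDN23 was 0.29, or 0.09 without hairpin 7 and 0.48 without hairpin 1. None of these 3 other claudins passed (1 higher at an unadjusted p under 0.05, limma, against 13.6% of all genes tested). CLDN1 made up 14.1% and 13.6% of summed claudin FPKM with scramble, 5.63% with hairpin 1 and 4.22% with hairpin 7. CLDN4 made up 18.9% in both scramble libraries, 26.0% with hairpin 1 and 22.0% with hairpin 7, while CLDN7 stayed between 20.5% and 22.1% in all 4. Summed claudin FPKM was 424 and 425 with scramble, 529 with hairpin 1 and 468 with hairpin 7, so CLDN1 was lower while the family's sum was not. That sum includes CLDN6. For CLDN1, CLDN3, CLDN4 and CLDN7 alone the sum was 238 and 237 FPKM with scramble, 285 FPKM with hairpin 1 and 222 FPKM with hairpin 7. With hairpin 7 it thus lay below both scramble values.

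**Figure D2:**
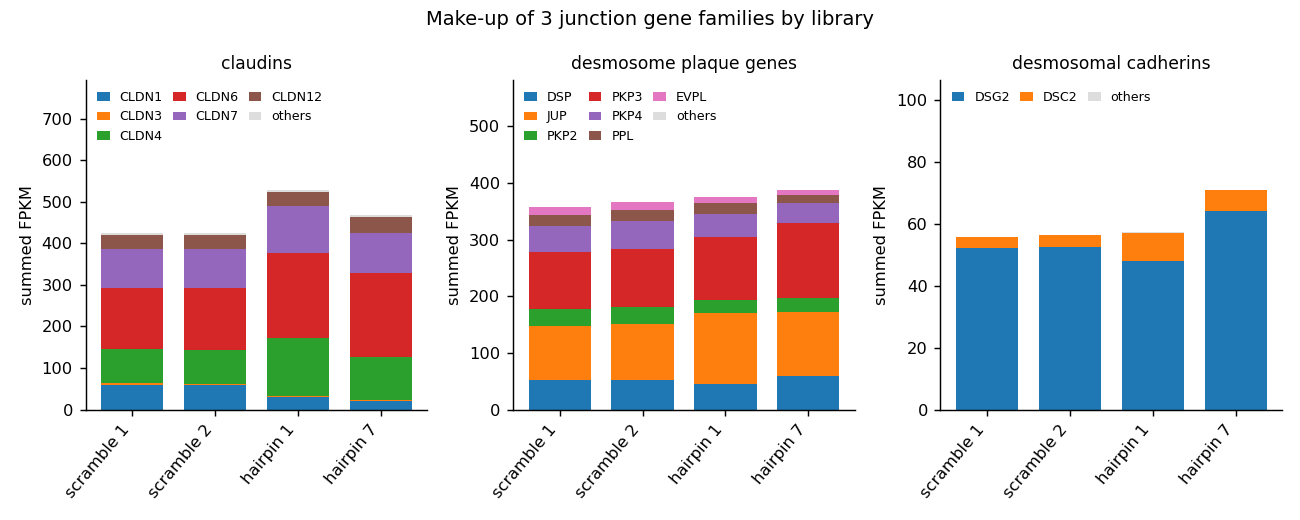
Summed FPKM (vertical axes, from 0) of 3 gene families in each library, stacked by gene, with the rest of each family in grey. The CLDN1 part of the claudin bar is smaller with both hairpins (5.63% and 4.22% of the sum, against 14.1% and 13.6%), and the DSC2 part of the cadherin bar is larger (15.8% and 9.57%, against 6.39% and 6.94%).

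OCLN and TJP1 behaved differently from each other. OCLN was at 16.43 FPKM with hairpin 1 and 16.59 FPKM with hairpin 7, both below both scramble values and close together. Its log2 change was -0.20 ± 0.09 (SE; 95% interval -0.44 to 0.05; limma, adjusted p = 0.264). TJP1 was at 30.52 FPKM with hairpin 1, 66.7% of the scramble mean. With hairpin 7 it was at 46.76 FPKM, just above both scramble values of 45.61 and 45.94 FPKM. The hairpins thus lay on opposite sides of scramble, hairpin 7 only narrowly. The mean change of -0.27 ± 0.21 (SE, limma, adjusted p = 0.455) describes neither hairpin. The gene span of TJP1 overlaps that of the pseudogene HMGN2P5 on the other strand. HMGN2P5 was at 78.7 and 85.4 FPKM with scramble and 68.9 and 57.0 FPKM with the hairpins. The span of CLDN7 likewise overlaps that of the coding gene ELP5 on the other strand. ELP5 was at 59.94 and 60.01 FPKM with scramble and 64.83 and 61.95 FPKM with the hairpins. The strand setting is not given, and the part of HMGN2P5 in the TJP1 values and of ELP5 in the CLDN7 values was not tested.

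Of the desmosomal cadherins, DSC2 was the member with the highest fold over scramble. DSC2 encodes the desmocollin of simple epithelia (ENSG00000134755, chromosome 18, 31058840 to 31102522 on the minus strand in GENCODE 29). It was at 3.74 ± 0.255 FPKM with scramble and 7.93 ± 1.61 FPKM with knockdown (SD, n = 2 each), a 2.12-fold ratio of means, with 9.06 FPKM under hairpin 1 and 6.79 FPKM under hairpin 7. The groups did not overlap. The log2 change was 0.90 ± 0.17 (SE; 95% interval 0.46 to 1.35), at an adjusted p of 0.0683 (limma).

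DSG2, the desmoglein of the same cells, was far more abundant and split between the hairpins. It was at 47.92 FPKM with hairpin 1, below both scramble values, and at 64.05 FPKM with hairpin 7, above both (log2 change 0.08 ± 0.16, SE; 95% interval -0.32 to 0.49; limma, adjusted p = 0.77). There were 14.6 and 13.4 DSG2 FPKM for each DSC2 FPKM with scramble, 5.29 with hairpin 1 and 9.43 with hairpin 7. The other 5 cadherins of this family were each below 1 FPKM in every library, so that DSC2 and DSG2 made up over 99% of the cadherin sum.

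Among the plaque genes, JUP lay on the same side of scramble with both hairpins and DSP did not. JUP, which binds both desmosomal and classical cadherins, was at 125.02 FPKM with hairpin 1 and 111.98 FPKM with hairpin 7, above both scramble values (log2 change 0.28 ± 0.10, SE; 95% interval 0.02 to 0.54; limma, adjusted p = 0.173). Its relative CTNNB1 (beta-catenin) was at 200.49 and 204.51 FPKM with scramble and 201.19 and 202.08 FPKM with the hairpins. That is a log2 change of -0.006, whose sign is positive when libraries are rescaled to equal sums, by median ratios or by quantiles. The ratio of JUP to CTNNB1 was 0.48 in both scramble libraries, 0.62 with hairpin 1 and 0.55 with hairpin 7. DSP was at 45.24 FPKM with hairpin 1 and 59.85 FPKM with hairpin 7, again on opposite sides of scramble. Its log2 change of -0.02 ± 0.15 (SE; 95% interval -0.42 to 0.38; limma, adjusted p = 0.954) turned positive when libraries were rescaled to equal sums or by quantiles.

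**Figure D3:**
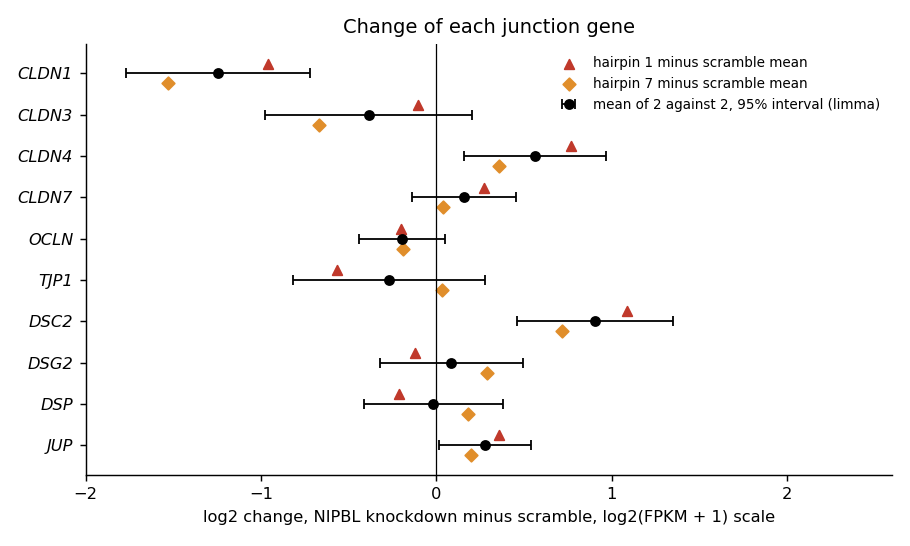
Log2 change of each member (horizontal axis, knockdown minus scramble, from log2(FPKM + 1)): black points are means with 95% limma intervals, triangles hairpin 1 and diamonds hairpin 7, each against the scramble mean. Intervals of CLDN1, CLDN4, DSC2 and JUP do not cross 0, and the hairpins fall on opposite sides of 0 for TJP1, DSG2 and DSP.

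The hairpins differed more from each other than the scramble libraries did. Over the members, the size of the log2 difference between scramble libraries was between 0.007 and 0.11, and between the hairpins it was between 0.01 and 0.60. Over all genes tested the SD of that difference was 0.28 between scramble libraries and 0.45 between hairpins. For 3 members (TJP1, DSG2 and DSP) hairpin 1 lay below and hairpin 7 above both scramble libraries, a pattern that 8.31% of all genes tested had. CLDN1, CLDN3, CLDN4, CLDN7, DSC2 and JUP were lower with hairpin 7 than with hairpin 1. The residual NIPBL level was 30.9% of scramble with hairpin 1 and 39.0% with hairpin 7. Whether it bears on these differences was not tested, since each hairpin is 1 library.

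With 1 hairpin library left out, the remaining one has no replicate, and limma takes its variation from the scramble pair, which lies close together. Against hairpin 1 alone limma then called 6 members, 4 higher (CLDN4, CLDN7, DSC2 and JUP) and 2 lower (CLDN1 and TJP1), where 22.7% of all genes tested were called. Against hairpin 7 alone it called 4 higher (CLDN4, DSC2, DSG2 and JUP) and 2 lower (CLDN1 and CLDN3), where 35.3% were called. These comparisons share the scramble libraries, so they are not independent of each other. Without scramble 1 or scramble 2, or with both averaged, limma called no gene at all, members included. Such a fit leaves 1 scramble sample, so this says nothing about the members in particular.

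Other genes of the 2 junctions were taken from lists. Of all genes tested, 13.6% were higher and 12.8% lower at an unadjusted p under 0.05 (limma). Of 30 tested tight junction partners 0 passed (6 higher and 0 lower at an unadjusted p under 0.05, limma), with 16 above 0 and a median log2 change of 0.05, which was 0.08 with hairpin 1 alone and -0.008 with hairpin 7 alone. CXADR, an adhesion receptor of the tight junction, was at 9.24 and 9.96 FPKM with scramble and 15.37 and 17.15 FPKM with the hairpins, and its log2 change was 0.70 ± 0.11 (SE), at an adjusted p of 0.0544 (limma). CXADR passed with genes of at least 5 FPKM only (adjusted p = 0.0473) and with protein-coding genes only (adjusted p = 0.046), where fewer genes were tested. Of the polarity genes, PATJ, CRB3 and PARD6A had log2 changes of 0.40, 0.45 and 0.41, and that of CRB3 was 0.27 without hairpin 7. Other polarity genes lay below 0, among them PARD6B at -0.68, PARD6G at -0.34, PARD3 at -0.18 and PRKCI at -0.17. PARD6B was at -1.07 with hairpin 1 alone and -0.30 with hairpin 7 alone. YBX3, a TJP1-binding factor and the most abundant of the list, had a log2 change of 0.09, which was -0.04 without hairpin 1. At 37 entries this list was the longest, and 7 of them were below the filter.

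Of 7 tested desmosome partners 1 rose and 0 fell over all genes (limma), where 1.45% of all genes tested rose and 1.11% fell. At an unadjusted p under 0.05 limma gave 2 of them higher and 3 lower, against 13.6% and 12.8% of all genes tested. The list's median was -0.25, or -0.03 with hairpin 1 alone and -0.22 with hairpin 7 alone. The gene that rose was PLEC, which encodes plectin, a plakin that links intermediate filaments to hemidesmosomes and other sites. PLEC was at 48.72 and 48.53 FPKM with scramble and 95.49 and 90.66 FPKM with the hairpins, a log2 change of 0.92 ± 0.09 (SE) at an adjusted p of 0.0218 (limma). PERP, a desmosomal membrane protein gene, had a log2 change of 0.38, the plakin gene EVPL of -0.36 and the plakophilin gene PKP4 of -0.31, none of which passed. Among 8 tested gap junction and hemidesmosome genes 1 rose and 0 fell (1 higher and 3 lower at an unadjusted p under 0.05, limma). It was DST, a further plakin gene, at 17.39 and 16.23 FPKM with scramble and 28.91 and 34.49 FPKM with the hairpins, a log2 change of 0.87 ± 0.12 (SE) at an adjusted p of 0.0459 (limma). DST lost its call when libraries were rescaled to equal sums (adjusted p = 0.0704), by quantiles (adjusted p = 0.0526) or with no mean trend (adjusted p = 0.0662). In that list ITGB4 and ITGA6, the hemidesmosome integrin genes, had log2 changes of -0.29 and -0.24, the connexin gene GJB5 of -0.37 and the collagen gene COL17A1 of -1.38, and the median was -0.27. Without hairpin 1 that of COL17A1 was -0.62 and that of ITGB4 -0.19, and without hairpin 7 that of COL17A1 was -2.13. DSP, the desmosomal plakin gene, did not move with PLEC and DST, at -0.02.

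Adherens junctions hold the classical cadherins, and their genes were the most like comparison. Of 17 tested genes 1 rose and 0 fell, with 9 above 0 and a median of 0.07 (limma), which was 0.11 with hairpin 7 alone. At an unadjusted p under 0.05 limma gave 6 higher and 3 lower, against 13.6% and 12.8% of all genes tested. The gene that rose was NECTIN4, a nectin of the adherens junction, at 1.75 and 2.21 FPKM with scramble, 6.68 FPKM with hairpin 1 and 9.95 FPKM with hairpin 7. Its log2 change was 1.63 ± 0.22 (SE), at an adjusted p of 0.043 (limma). It lost its call when libraries were rescaled to equal sums (adjusted p = 0.0617) or fitted with no mean trend (adjusted p = 0.0522). NECTIN2 had a log2 change of -0.63, the p120 catenin gene CTNND1 of 0.49 and LMO7 of 0.41, none of which passed. Absolute log2 changes of at least 0.5 were seen in 4 of these 17 genes, in 3 of the 10 members and in 17.9% of all genes tested.

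**Figure D4:**
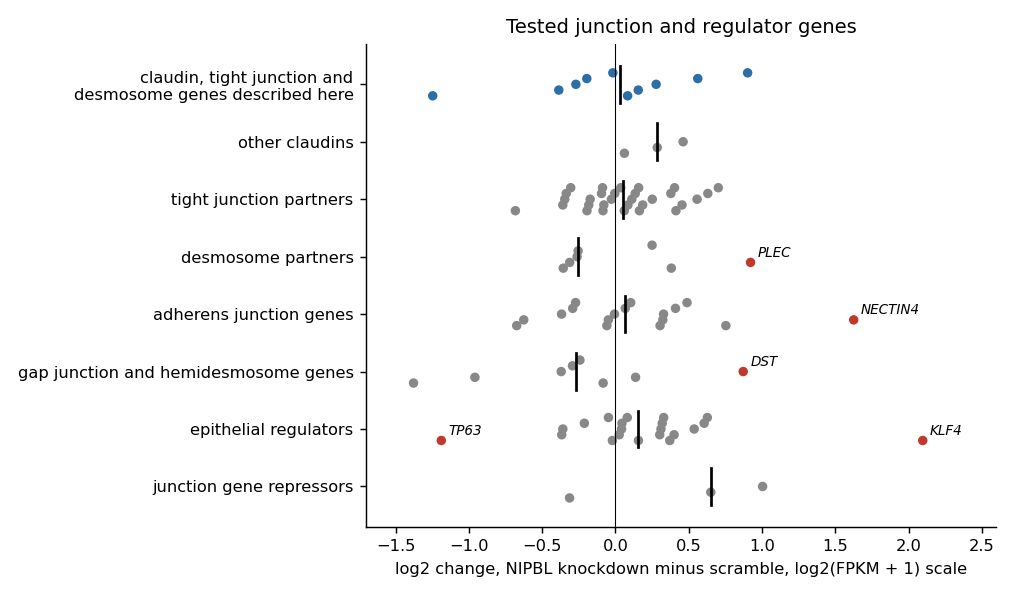
Log2 change (horizontal axis, log2(FPKM + 1) scale) of every tested gene of the described set (blue) and of 7 lists (grey), 1 point per gene, with list medians as black bars and genes that passed the test in red. PLEC, DST, NECTIN4 and KLF4 passed as higher and TP63 as lower, and 0 of the 10 blue points passed.

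Epithelial regulators and repressors of junction genes were also listed. The first list also holds genes that do not encode transcription factors, such as ST14, SPINT1, SPINT2, EPCAM and RAB25. Of 21 tested epithelial regulators 1 rose and 1 fell over all genes, with a median of 0.16 (limma). At an unadjusted p under 0.05 limma gave 9 of them higher and 2 lower, against 13.6% and 12.8% of all genes tested. KLF4, a Krüppel-like factor of differentiating epithelia, was at 9.88 and 9.42 FPKM with scramble and 43.41 and 45.73 FPKM with the hairpins, a log2 change of 2.10 ± 0.10 (SE) at an adjusted p of 0.00718 (limma). TP63, the factor of basal epithelial cells, was at 18.47 and 18.04 FPKM with scramble and 6.74 and 8.23 FPKM with the hairpins, a log2 change of -1.19 ± 0.13 (SE) at an adjusted p of 0.0283 (limma). Of the 4 basal keratin genes checked as markers, KRT5 and KRT6A were lower with both hairpins (2.67 to 3.83 FPKM, against 22.96 to 26.26 FPKM) and KRT17 was higher (36.76 and 103.55 FPKM, against 10.68 and 11.79 FPKM), while KRT14 was between 0.09 and 0.22 FPKM in all 4 libraries. Their part in the junction values was not tested. TP63 lost its call when libraries were rescaled to equal sums (adjusted p = 0.0561). GRHL2, a grainyhead-like factor of claudin and cadherin genes, had a log2 change of 0.63. GRHL1, of the same family, had one of -0.36, at 12.64 and 11.65 FPKM with scramble and 8.37 and 10.20 FPKM with the hairpins. The log2 change of KLF5 was 0.61 and that of the protease inhibitor gene SPINT2 0.03, which was -0.02 without hairpin 1. Of 10 listed repressors 3 were tested and 0 passed (2 higher at an unadjusted p under 0.05, limma). Those not tested include ZEB1, at most 0.09 FPKM in any library, and ZEB2, at 0 in all 4 libraries. SNAI2 was at 6.70 and 7.56 FPKM with scramble, 10.46 FPKM with hairpin 1 and 22.15 FPKM with hairpin 7, FOXC2 had a log2 change of 0.65, and SNAI1 was at 1.28 and 1.29 FPKM with scramble, 1.40 FPKM with hairpin 1 and 0.41 FPKM with hairpin 7. PLEC, DST, NECTIN4, KLF4 and TP63 each lost their call without scramble 1, without scramble 2, with these averaged, and with no filter on low values, with the direction kept.

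A pair of members on each of 2 chromosomes are neighbours. CLDN3 and CLDN4 lie on chromosome 7 in GENCODE 29, with 29.3 kb and 0 coding genes between them, on opposite strands. That gap is between gene spans. The RefSeq start used for the CLDN4 promoter lies inside its GENCODE span, so the starts shown are further apart. Log2 changes were -0.39 for CLDN3 and 0.56 for CLDN4. The ratio of CLDN4 to CLDN3 was 17.1 and 18.7 with scramble, 33.5 with hairpin 1 and 42.1 with hairpin 7. Of 15 tested genes of that stretch, this pair included, 0 passed (2 higher and 3 lower at an unadjusted p under 0.05, limma), with 8 above 0. STX1A, on the CLDN3 side of the pair, had a log2 change of 0.79, which was 0.46 without hairpin 1 and 1.11 without hairpin 7. The genes EIF4H, RFC2 and CLIP2, on the CLDN4 side, had -0.43, -0.42 and -0.45. DSC2 and DSG2 lie on chromosome 18, 396 kb apart, with 4 cadherin genes between them (DSC1, DSG1, DSG4 and DSG3), each below 1 FPKM in all 4 libraries. Their log2 changes were 0.90 and 0.08. The 4 other genes tested in that stretch lay below 0, namely RNF138 at -0.46, RNF125 at -0.29, B4GALT6 at -0.28 and TRAPPC8 at -0.10. RNF138 was at -0.23 without hairpin 7, and TRAPPC8 was at -0.03 without hairpin 1 and -0.17 without hairpin 7. In that stretch 0 of 6 passed (1 higher and 1 lower at an unadjusted p under 0.05, limma). Over all genes tested 13.6% were higher and 12.8% lower at that unadjusted p (limma).

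**Figure D5:**
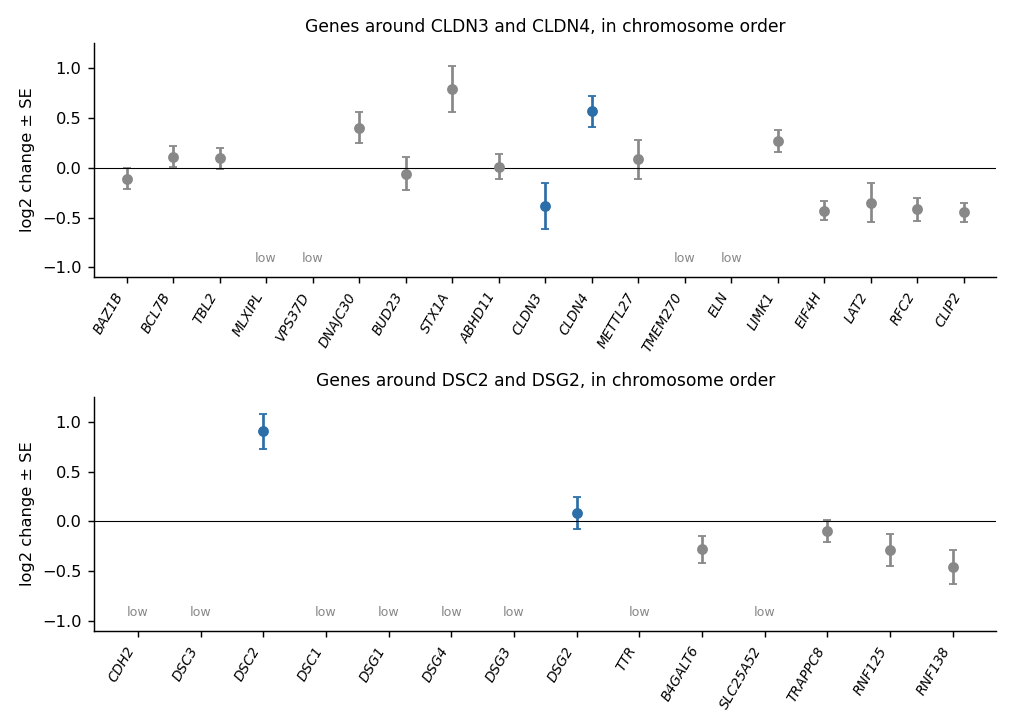
Log2 change with its SE (vertical axes) of genes around CLDN3 and CLDN4 and around DSC2 and DSG2, in chromosome order (horizontal axes, not to scale), members in blue and genes under the filter written as low. CLDN4 and DSC2 lie above 0, CLDN3 below it and DSG2 near it.

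Since no member passed, the genes with the most similar profile were sought for CLDN1, the member with the smallest p. Over the 4 libraries the protein-coding genes at the smallest Euclidean distance, in log2(FPKM + 1) centred per gene, were SLC1A3 (distance 0.08), ASMTL (0.09) and ZNF286A (0.09). With only 4 libraries this likeness is a description. SLC1A3, a glutamate transporter gene, was at 93.46 and 93.76 FPKM with scramble, 45.44 FPKM with hairpin 1 and 29.94 FPKM with hairpin 7.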

How the data were processed

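RNA sequencing libraries of NUGC3 cells, 2 scramble and 2 NIPBL knockdown, were compared. The authors deposited FPKM per gene, with 2 decimals. Per the submitters' processing notes STAR and RSEM were used; the sources used here do not give versions, genome build, annotation, strand setting or filters. Of 344810 rows, 291033 carried no gene identifier and stayed out; they held between 8.47% and 9.27% of FPKM per library. Read depth is unknown, so no counting intervals are given. The test was limma 3.58.1 under R 4.3.3, with a linear model per gene and eBayes with its mean trend, on log2(FPKM + 1), over the 12834 genes whose mean FPKM was 1 or more. Its two-sided p-values were Benjamini-Hochberg adjusted, with a threshold of 0.05. The code was run on data simulated with the spread between the scramble libraries in every library. The hairpins differed more than that, so the simulation cannot show how the test fares at their spread. The log2(FPKM + 1) scale understates changes of low genes. List symbols were matched by Ensembl identifier or older symbol, all 162 distinct entries having a row. Gene coordinates are GENCODE 29 and promoters RefSeq (10 of 10 members matched). Members, lists and named genes (per list those that passed, the 4 smallest p and the most abundant) were chosen with earlier results of these data known. Ratios of gene pairs, GRHL1, the polarity genes named as below 0, and the genes of the closing observations, were chosen after their values were seen. Alternatives tried were 2 other pseudocounts, other filters, 3 other scalings, no mean trend, averaged scramble libraries, protein-coding genes only, and each library left out.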

Additional observations from a re-analysis of the deposited data

Results flagged for a closer look

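For 3 members hairpin 1 lay below and hairpin 7 above both scramble libraries, a pattern that 8.31% of all genes tested had. For TJP1 the hairpin 7 value of 46.76 FPKM lay close to the higher scramble value of 45.94 FPKM, so it differed mainly with hairpin 1. The log2 difference of hairpin 7 minus hairpin 1 was 0.60 for TJP1, 0.41 for DSG2 and 0.40 for DSP. Each hairpin is 1 library, so these differences were not tested.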

How the results depend on the processing

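Of 99 member values under settings other than leaving out a library, 95 kept both direction and side of the threshold. CLDN1 came to pass (1 member lower) with a mean of at least 5 FPKM and with protein-coding genes only, where fewer genes were tested. DSP turned positive when rescaled to equal sums (0.0287) and by quantiles (0.0139). Leaving out 1 library gave 0 to 4 members higher and 0 to 2 lower, and log2 changes of -0.57 to 0.0301 for TJP1, -0.12 to 0.29 for DSG2, -0.22 to 0.18 for DSP, -0.0395 to 0.21 for YBX3, -0.0217 to 0.0737 for SPINT2, -0.70 to 0.0708 for SNAI1 and -0.0203 to 0.0082 for CTNNB1. CTNNB1 was also at 0.0404 rescaled to equal sums, 0.0034 by median ratios and 0.0106 by quantiles. Over all genes tested 328 passed, 1 with no filter on low values, 0 with the scramble libraries averaged (975 at an unadjusted p under 0.05, limma) and 0 to 4532 with 1 library left out (0 without scramble 1 or without scramble 2, with 1060 and 1052 at an unadjusted p under 0.05; 4532 without hairpin 1 and 2915 without hairpin 7). Of the list genes 4 rose and 1 fell; 0 rose and 0 fell with no filter or with scramble averaged, 2 rose and 0 fell rescaled to equal sums, 2 rose with no mean trend, 5 rose with a mean of at least 5 FPKM and with protein-coding genes only (CXADR added), 3 rose by quantiles, and 0 to 29 rose and 0 to 22 fell with 1 library left out. The cause was not tested. No paired analysis was possible because the labels give no numbers shared by the groups.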

Other observations

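A few other contact genes differed more between the hairpins than most members did, and were chosen after their values were seen. GJB2, a connexin gene, was at 26.28 and 27.00 FPKM with scramble, 22.60 FPKM with hairpin 1 and 7.57 FPKM with hairpin 7. COL17A1, a hemidesmosome collagen gene, was at 9.34 and 11.10 FPKM with scramble, 1.55 FPKM with hairpin 1 and 6.27 FPKM with hairpin 7. PLEKHA7, which binds p120 catenin at the adherens junction, was at 12.97 and 13.24 FPKM with scramble, 16.76 FPKM with hairpin 1 and 30.85 FPKM with hairpin 7. LIMA1, an actin-binding partner of alpha-catenin, was at 89.07 and 86.18 FPKM with scramble, 45.68 FPKM with hairpin 1 and 65.13 FPKM with hairpin 7.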
